A study of Arabidopsis thaliana with 9 samples.

Results

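The wild-type transcriptome of 14-day-old Arabidopsis thaliana seedlings was described from the 3 libraries titled WT, out of 9 libraries in the series. All 22903 listed loci were ranked by their mean level in those 3 libraries, and the spread between the 3 was measured for each locus. The study sequenced mRNA from wild type and from the mutants aar2-1 and aar2-2, with 3 biological replicates of each. The description is of wild type, and the mutants serve only to show how far the same loci varied among their own replicates. The wild-type plants carried no named allele or transgene and received no named treatment. Like the mutants, they were grown on 1/2 MS, a dilute mineral salt medium, in cycles of 16 h of light and 8 h of darkness. Seedlings were ground in liquid nitrogen for RNA extraction. The labels give neither the time of day of harvest nor the number of plants in a sample. They do not say whether replicates came from separate sowings, so the spread given here may in part be technical. Every value is in CPM, the reads of a locus per 1000000 reads counted over loci, or in CPM per kilobase of the locus's longest annotated mRNA.

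Green seedlings live from photosynthesis, and most proteins of the chloroplast are encoded in the nucleus, made in the cytosol and imported. Light-harvesting chlorophyll a/b-binding proteins collect light for photosystems I and II, and Rubisco, built from chloroplast-encoded large and nuclear-encoded small subunits, fixes carbon dioxide in the Calvin cycle. Many of the nuclear genes involved are known to respond to light and to the circadian clock, whereas a separate set of genes for transcription factors and calcium-binding proteins is known to respond within minutes to touch, cold or wounding.

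The 3 libraries held 24471217, 27715504 and 27557359 reads over loci, so that 1 read was worth 0.0409, 0.0361 and 0.0363 CPM. Reads were present in every wild-type library for 21874 loci, and 72 loci had none in any of the 3. A mean of at least 1 CPM was reached by 18826 loci, of at least 100 CPM by 1756 loci and of at least 1000 CPM by 107. Replicate 2 stood apart from the other two: in a principal component analysis of log2(CPM + 1), 76.6% of the variance lay on an axis with scores of -5.88, 16.6 and -10.8 for replicates 1, 2 and 3. Across the 15097 loci with a mean of at least 5 CPM, 1 locus differed at least 2-fold on the log2(CPM + 1) scale between replicates 1 and 3, against 30 between 1 and 2 and 60 between 2 and 3. No pair of libraries was a copy of another, since the mean chi-square per locus was 5.06, 18.8 and 30.2 for these pairs, where counting error alone gives about 1.

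A small number of transcripts made up much of each library. RBCS1A, which encodes a small subunit of Rubisco, alone took 1.99% ± 0.0243 of the counted reads (SD, n = 3). The 10 loci with the highest mean CPM took 7.67%, 8.64% and 7.31% in replicates 1, 2 and 3, and the highest 100 took 24.1%, 26.9% and 23.1%. Replicate 2 was the most concentrated in both cases. On average 104 loci accounted for 25% of the reads, 877 for 50% and 7977 for 90%. Of the highest 30 loci, 26 belonged to 4 lists of nuclear photosynthesis genes: the light-harvesting antenna, photosystem and electron transport subunits, Rubisco small subunits with Rubisco activase, and Calvin cycle enzymes. Of the highest 100 loci, 51 belonged to these lists. Together the 69 members of the 4 lists took 16.6%, 19.5% and 15.7% of the reads. The highest 100 loci had a median mRNA length of 1488 bases and a median of 2 introns, against 1807.5 bases and 4 introns over all annotated loci with a mean of at least 5 CPM.

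**Figure D1:**
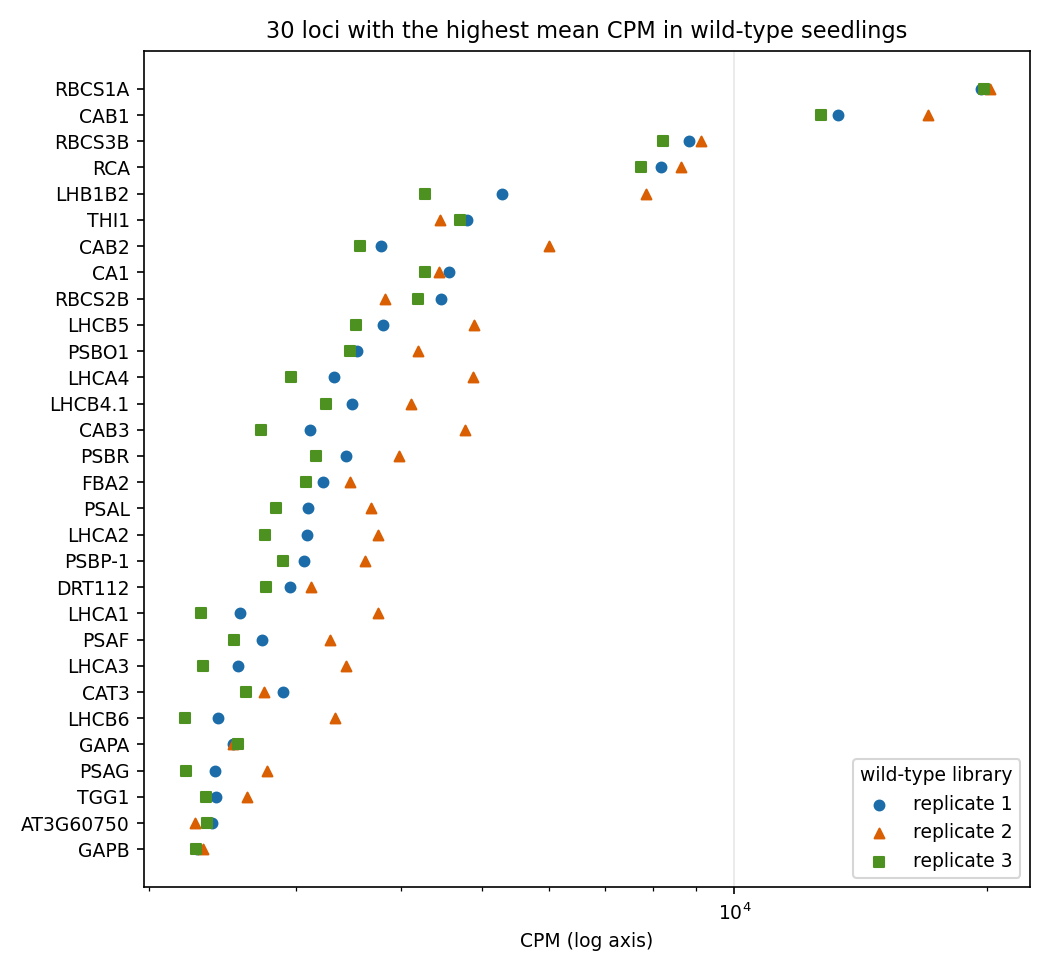
CPM of the 30 loci with the highest mean CPM, on a log axis, with a symbol for each of the 3 wild-type libraries. RBCS1A lies between 19683 and 20165 CPM, whereas replicate 2 lies to the right of the other two for the light-harvesting genes, named CAB, LHB, LHCA and LHCB.

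RBCS1A was the most abundant transcript in each library, and the sum of the Rubisco small subunit genes was steady. RBCS1A was read at 19683, 20165 and 19870 CPM in replicates 1, 2 and 3. RBCS3B was read at 8819, 9114 and 8228 CPM, RBCS2B at 4469, 3823 and 4195 CPM, and RBCS1B at 1807, 1587 and 1761 CPM. The sum of the 4 genes was 34779, 34689 and 34055 CPM, a coefficient of variation (CV, the SD over the mean) of 1.14%, whereas RBCS2B and RBCS1B alone had CVs of 7.79% and 6.76%. The 5 Lhcb1 genes described next summed to 26634, 37427 and 24315 CPM, above the RBCS sum in replicate 2 and below it in the other libraries. Per kilobase the order was RBCS1A at 15699 ± 191 CPM (SD, n = 3), RBCS3B at 7207 ± 373, RBCS2B at 4452 ± 347 and RBCS1B at 907 ± 61.4, and no neighbours in that order overlapped. RCA, which encodes Rubisco activase, the chaperone that clears inhibitors from the enzyme's active site, was read at 8168, 8643 and 7738 CPM. The split between the copies is uncertain to the degree that they are alike. RBCS1B, RBCS2B and RBCS3B lie side by side on chromosome 5, and their coding sequences are 96.7% to 97.3% identical, with an identical run of 233 bases between RBCS1B and RBCS3B. RBCS1A, on chromosome 1, is 90.4% to 90.6% identical to the other three, and its longest identical runs with them are 44 to 67 bases. The second coding exon shows how little separates the copies: of its 135 bases, coding positions 172 to 306 counted from the A of the start codon, 121 are shared by all 4. The exon is given below from the RefSeq annotation of TAIR10.1, 5′ to 3′ on the minus strand, with capitals at the 14 positions where the copies differ.
RBCS1A (chr1:25048838-25048972): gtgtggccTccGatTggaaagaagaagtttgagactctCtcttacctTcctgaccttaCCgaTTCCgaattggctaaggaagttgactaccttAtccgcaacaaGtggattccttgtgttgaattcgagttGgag
RBCS1B (chr5:15384761-15384895): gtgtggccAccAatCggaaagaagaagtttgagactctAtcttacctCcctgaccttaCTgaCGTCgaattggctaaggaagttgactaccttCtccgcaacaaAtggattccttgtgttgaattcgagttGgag
RBCS2B (chr5:15381583-15381717): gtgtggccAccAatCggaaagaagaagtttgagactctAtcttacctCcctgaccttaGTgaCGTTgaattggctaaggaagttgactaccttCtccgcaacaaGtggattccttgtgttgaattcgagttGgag
RBCS3B (chr5:15377911-15378045): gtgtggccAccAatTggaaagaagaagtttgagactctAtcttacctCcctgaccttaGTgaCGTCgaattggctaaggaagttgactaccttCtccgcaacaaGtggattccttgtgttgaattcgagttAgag

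The light-harvesting antenna, with 20 loci, took 5.47%, 7.59% and 4.97% of the reads in replicates 1, 2 and 3. By reads it had the highest mean share of the lists, but per length it took 7.25% ± 1.65 (SD, n = 3) and the photosystem and electron transport list 7.29% ± 0.688, which do not differ beyond their spread. CAB1, which encodes an Lhcb1 protein of the major photosystem II antenna, ranked second of all loci at 13285, 17016 and 12673 CPM. Per kilobase the 5 Lhcb1 genes were CAB1 at 11646 ± 1911 CPM (SD, n = 3), LHB1B2 at 5549 ± 1758, CAB2 at 3390 ± 1022, CAB3 at 2890 ± 888 and LHB1B1 at 1025 ± 305. The SD ranges of LHB1B2 and CAB2 overlapped, as did those of CAB2 and CAB3, but LHB1B2, CAB2 and CAB3 kept this order within each library. Before division by length they were read at 5286, 7838 and 4274 CPM, 3786, 6001 and 3576 CPM, and 3117.5, 4768 and 2720 CPM. CAB1, CAB2 and CAB3 have coding sequences 95.6% to 96.4% identical, with longest identical runs of 74 to 119 bases. Their split is uncertain in the same way as that of the RBCS genes on chromosome 5. The minor photosystem II antenna proteins Lhcb4, Lhcb5 and Lhcb6 were represented by LHCB5 at 3806, 4890 and 3535 CPM, LHCB4.1 at 3494, 4112 and 3255 CPM and LHCB6 at 2419, 3337 and 2206 CPM. Of the photosystem I antenna, LHCA4 was read at 3331, 4879 and 2955 CPM, LHCA2 at 3089, 3756 and 2753 CPM and LHCA3 at 2555, 3443 and 2322 CPM. LHCA5 and LHCA6 stood far below LHCA1 to LHCA4: per kilobase they reached 161 and 125 CPM, against 2063 to 2874 for the other four. Replicate 2 was the highest library for every antenna gene named so far.

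The 29 nuclear genes for photosystem and electron transport subunits took 4.81%, 5.48% and 4.53% of the reads. PSBR, a photosystem II subunit, was the highest of them per kilobase, at 4499 ± 525 CPM (SD, n = 3), followed by PSAG at 3153 ± 359 and PSAL at 2980 ± 402, which encode photosystem I subunits. PSBO1, which encodes the protein that stabilises the oxygen-evolving manganese cluster, was read at 3549, 4192 and 3477 CPM, and its second copy PSBO2 at 1152, 1271 and 1128 CPM. PSBP-1, another protein of the oxygen-evolving complex, was read at 3063, 3619 and 2889 CPM, and PSAF, a photosystem I subunit, at 2731, 3289 and 2529 CPM. Plastocyanin carries electrons from the cytochrome b6f complex to photosystem I. DRT112, its major gene, stood at 2186 ± 136 CPM per kilobase and PETE1, the minor gene, at 177 ± 8.65. All 29 genes were highest in replicate 2 and lowest in replicate 3, against 21.9% and 21.3% of all loci with a mean of at least 5 CPM. Carbon fixation genes were steadier: the 15 Calvin cycle loci took 2.07%, 2.12% and 2.04% of the reads. GAPA, a subunit of the glyceraldehyde 3-phosphate dehydrogenase that uses NADPH, was read at 2521, 2522 and 2555 CPM, and GAPB, its partner subunit, at 2281, 2322 and 2275 CPM. FBA2, an aldolase of the cycle, was read at 3224, 3480 and 3078 CPM. Within the transketolases the locus AT3G60750 was read at 2382, 2268 and 2348 CPM, against 17.9, 14.1 and 17.3 CPM for its paralogue AT2G45290. Photorespiration, which recycles the product of Rubisco's reaction with oxygen, took 1.44%, 1.46% and 1.403% over 10 loci, with the glycine and serine enzymes GLDP1, GGT1 and SHM1 between 2047 and 2293 CPM in every library. CA1, a chloroplast carbonic anhydrase, was read at 4560, 4442 and 4271 CPM.

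**Figure D2:**
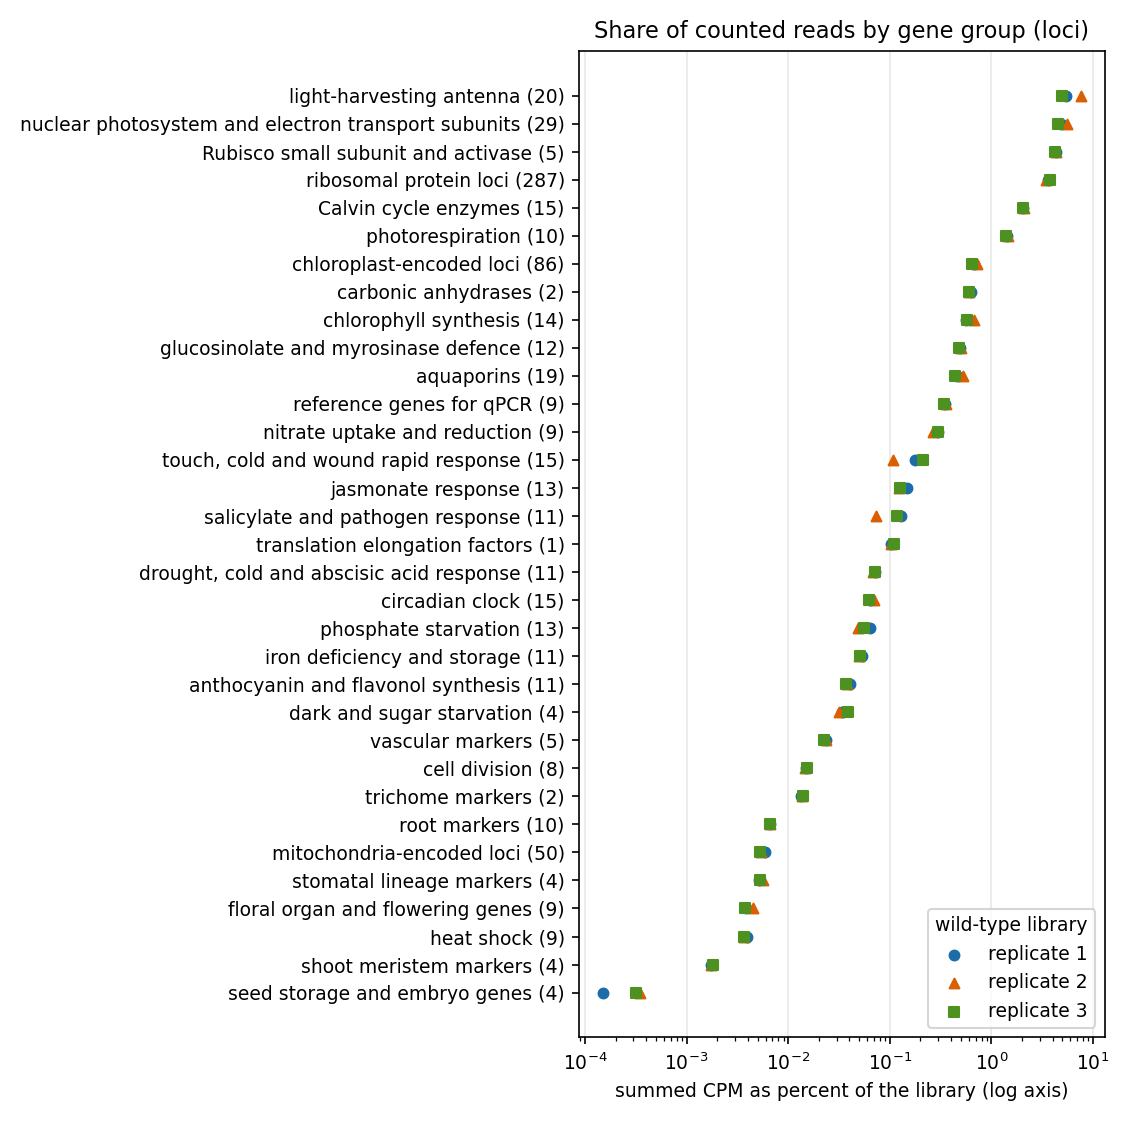
Summed CPM of each gene group as a percentage of the library, on a log axis, with a symbol for each wild-type library and the number of loci in brackets. The libraries coincide for most groups, and replicate 2 lies above the others for the antenna and below them for the rapid-response and salicylate lists.

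Outside the photosynthesis lists the most abundant transcript was THI1, which encodes the enzyme that makes the thiazole part of vitamin B1, at 4799, 4452 and 4705 CPM. CAT3, a catalase that breaks down hydrogen peroxide, was read at 2891, 2744 and 2614 CPM. TGG1, a myrosinase that cleaves glucosinolates when tissue is crushed, was read at 2403, 2621 and 2337 CPM, and stood at 1299 ± 78.6 CPM per kilobase (SD, n = 3) against 422 ± 24.9 for its paralogue TGG2. Nitrogen assimilation was represented among the highest 100 loci by GS2, the chloroplast glutamine synthetase, at 1998, 1960 and 1935 CPM, by GLU1, a glutamate synthase, at 1947, 1917 and 1963 CPM, and by NIA2, a nitrate reductase, at 1788, 1614 and 1758 CPM. MT2B, a metallothionein, was read at 1648, 1591 and 1569 CPM, a mean of 2806 CPM per kilobase beside 2874 for the light-harvesting gene LHCA4. GS2, GLU1 and MT2B were singled out after their values were seen.

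Some high ranks belonged to loci that overlap a neighbour on the other strand, and the sources used here do not state whether strand was used in counting. AT1G55673, an uncharacterized locus whose whole length lies within PSAG, ranked seventh of all nuclear loci per kilobase. Its CPM was 83.5%, 84.1% and 83.1% of that of PSAG in replicates 1, 2 and 3. AT4G28755, also uncharacterized, ranked ninth per kilobase, and its CPM was 68.7%, 69.5% and 68.8% of that of PSAE-1, which it overlaps. AT1G72600, a hydroxyproline-rich glycoprotein locus, spans all of the germin-like gene GER1 on the other strand, and the pair was read at 1258, 1170 and 1250 against 1256, 1168 and 1248 CPM. The pairs moved in step in all 3 libraries, and their separate levels cannot be told apart in these values. The 3 pairs were singled out after their values were seen. Of the abundant genes named above, CAB1, LHB1B2, RCA, CA1, LHCA4, PSBR, PSBP-1, LHCB6, GAPA and GLU1 also overlap a neighbouring locus, so part of their reads is uncertain in the same way. Among the highest 100 loci, 28 overlapped a locus on the other strand, or 28% against 27.0% of all loci with a mean of at least 5 CPM.

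Transcripts of the organelle genomes were a small share of these mRNA libraries. The 86 chloroplast-encoded loci took 0.680%, 0.730% and 0.649% of the reads, and the 50 mitochondria-encoded loci took 0.00590%, 0.00541% and 0.00524%. The highest chloroplast locus, ATCG00480, was read at 1647, 1706 and 1237 CPM. Translation was represented by 287 nuclear loci annotated as ribosomal proteins, which took 3.56%, 3.48% and 3.76% of the reads. Products named as plastid or mitochondrial were left out, but organelle ribosomal proteins with a general name may remain among them. Of the 271 ribosomal protein loci with a mean of at least 5 CPM, 213 were highest in replicate 3, against 46.3% of all such loci, and 175 were after TMM scaling, which corrects library totals for composition, against 33.5% of all loci so scaled.

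Marker genes were used to check the label of seedling tissue: most root markers were near 0, and several markers of other cell types were read. In bulk RNA, fewer cells of a type and less RNA per cell cannot be told apart. Of 10 root markers, 8 had a mean between 0.0545 and 1.08 CPM. COBL9, needed for root hair growth, was read at 0.490, 0.0722 and 0.399 CPM. PLT1, a regulator of the root stem cell niche, had 0.163 CPM in replicate 1 and 0 reads in replicates 2 and 3, which allows up to 0.108 and 0.109 CPM (3 reads, for counting error only). CASP1, which marks the root endodermis, was read at 1.47, 0.830 and 0.943 CPM, and IRT1, the iron transporter of the root surface, at 0.531, 0.325 and 0.254 CPM. The remaining markers, SCR at 43.2, 43.4 and 45.7 CPM and SHR at 18.6, 19.95 and 17.9 CPM, are also known from leaf bundle sheath and vascular tissue. The summed CPM of the 10 was 66.4, 65.8 and 66.9, nearly all of it from SCR and SHR. NRT2.1, a nitrate transporter of the root that is also among the 10, had a mean of 0.631 ± 0.0968 CPM (SD, n = 3). The aquaporin TIP2;3, known mainly from roots and not among the 10, had 0.201 ± 0.0178 CPM. IRT1 and NRT2.1 also belong to the iron deficiency and nitrate lists, and the part of nutrient supply in their levels was not tested. The root markers other than SCR and SHR were near 0 in all 3 libraries labelled as seedling, and whether roots were included in the RNA was not tested.

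Markers of vascular, epidermal, meristem and dividing cells were read in the same libraries, and not all of these cell types are confined to shoots. SUC2, the sucrose transporter of phloem companion cells, had 189, 192 and 184 CPM. Of the 5 vascular markers, SUC2 among them, 4 reached a mean of 5 CPM, against 65.9% of all listed loci, and the lowest had 1.04 CPM. GL2, which acts in trichomes and other epidermal cells, had 131, 134 and 138 CPM, whereas GL1, the other trichome marker, had a mean of 1.29 CPM. Of the stomatal lineage, FAMA was read at 20.6, 24.8 and 22.9 CPM, TMM at 21.0, 21.1 and 18.6 CPM, SPCH at 8.66, 8.70 and 9.22 CPM, and MUTE at 1.103, 1.88 and 1.49 CPM. The shoot meristem genes KNAT1 and STM had means of 10.14 ± 0.397 and 7.48 ± 0.295 CPM, whereas WUS and CLV3, each active in a few meristem cells, had 0.0649 ± 0.0616 and 0.0619 ± 0.0407 CPM. Dividing cells were represented by CYCB1;2, a mitotic cyclin, at 16.7, 18.0 and 17.5 CPM. The floral organ genes were near 0: AP1, AP3, PI and AG had means between 0.0484 and 0.271 CPM, and LFY 0.374 ± 0.0822 CPM. Of the genes upstream of them, SOC1 was read at 31.7, 38.9 and 30.3 CPM, FT at 1.72, 1.19 and 1.38 CPM and the floral repressor FLC at 2.08, 2.96 and 2.39 CPM. Seed storage and oil body genes were near 0, the highest being CRA1 with a mean of 1.43 ± 0.392 CPM.

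**Figure D3:**
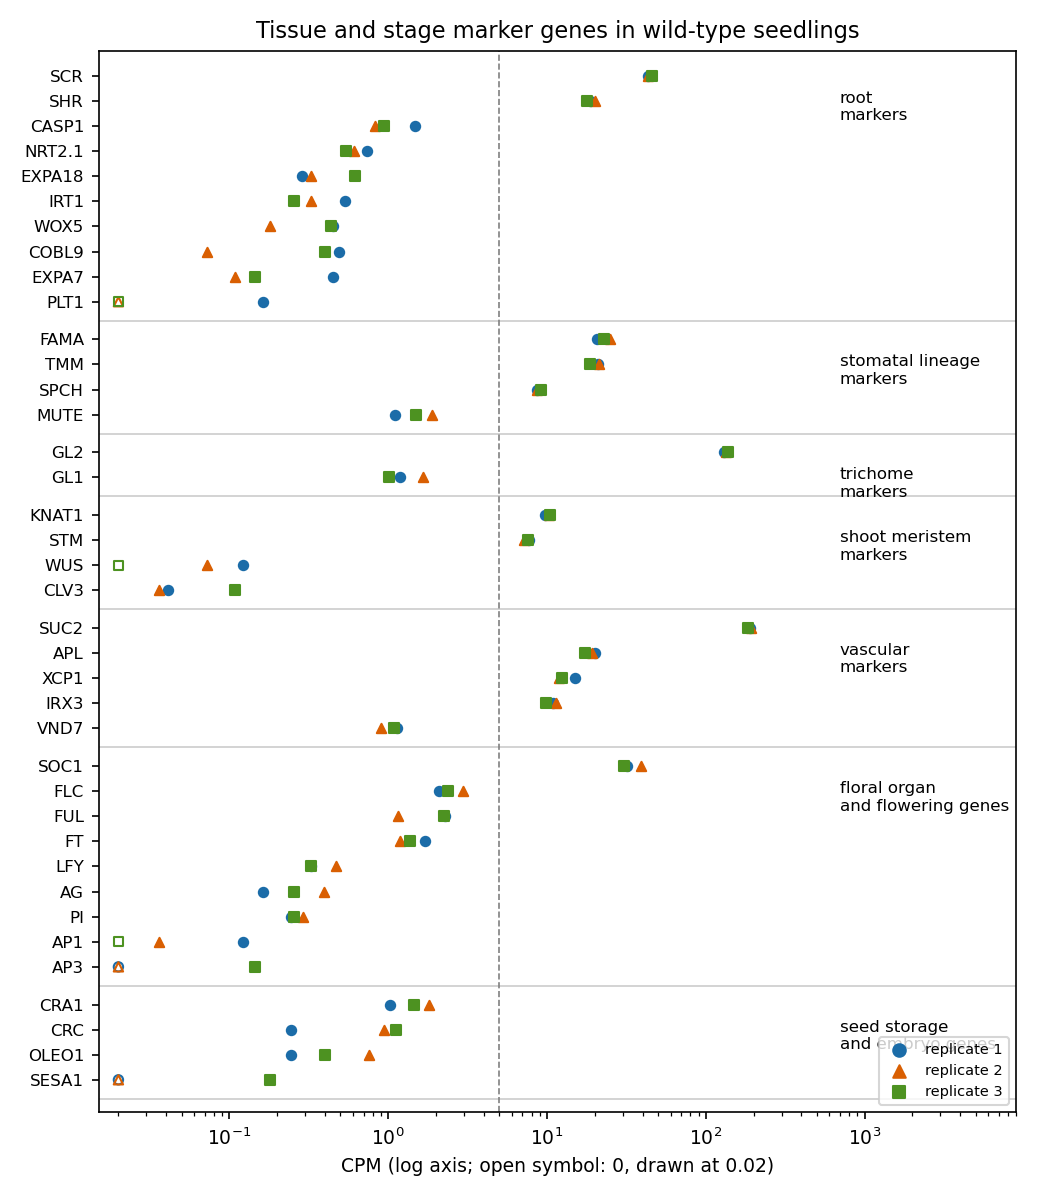
CPM of tissue and stage marker genes on a log axis, with a symbol for each wild-type library. The dashed line is at 5 CPM, and open symbols mark a library with 0 reads, drawn at 0.02 CPM; 8 of the 10 root markers lie left of the line near or below 1 CPM.

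Heat shock genes were mostly low, with 3 of 9 reaching a mean of 5 CPM, against 65.9% of all listed loci. Of the drought, cold and abscisic acid response genes, 10 of 11 reached it. The heat shock genes HSP17.6II, HSP21 and HSP23.6 had means of 0.139, 0.110 and 0.0601 CPM, and HSP101, a chaperone that dissolves protein aggregates, 10.11 ± 0.884 CPM. Of the drought, cold and abscisic acid list, RD22 was the highest at 252, 268 and 251 CPM, KIN2 was read at 126, 111 and 123 CPM and COR47 at 103, 94.6 and 110 CPM, and RD29B was the lowest with a mean of 1.33 ± 0.351 CPM. Of the iron deficiency genes, FRO2 had 1.39 ± 0.498 and FIT1 1.18 ± 0.335 CPM, while the iron store FER1 had 344 ± 17.8 CPM. PORA, the protochlorophyllide reductase of dark-grown seedlings, had 0.916 ± 0.108 CPM, or 0.569 CPM per kilobase, against 383 CPM per kilobase for PORB. The defence gene PR1 was read at 296, 160 and 260 CPM and PDF1.2 at 108, 101 and 103 CPM. The list of glucosinolate synthesis and myrosinase genes took 0.493%, 0.506% and 0.485% of the reads, much of it from TGG1. Its sum was highest in replicate 2, as were TGG1 and TGG2, although 9 of its 12 members were lowest there by CPM, against 55% of all loci, and 4 of 12 by TMM, against 36.5%. Aquaporins, which pass water through membranes, took 0.458%, 0.521% and 0.442%, led per kilobase by TIP1;2 at 742 ± 92.7 CPM.

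The spread between the 3 libraries was small for most loci. Among the 15097 loci with a mean of at least 5 CPM the median CV was 6.22%, the 5th and 95th percentiles were 1.52% and 19.2%, and the 99th was 30.8%. A CV of at least 30% was set as the mark of a variable gene, and 169 loci, or 1.12%, reached it. At the edge of that mark were AT2G15020, an uncharacterized locus with a CV of 30.1%, and AOX1D, a mitochondrial alternative oxidase, with 29.8%. The counting error was smaller than this spread: its median was 7.19% at 5 to 10 CPM, where the median CV was 9.37%, and 0.473% above 1000 CPM, where the median CV was 6.76%. The share of variable loci ran from 0.926% at 10 to 50 CPM to 5.61% above 1000 CPM, where 6 of 107 loci were variable. The variable genes were shorter than the rest, with a median mRNA of 1438 bases, and poorer in introns: 64 of 169 had none, or 37.9% against 12.2% of all annotated loci with a mean of at least 5 CPM, and their median number of introns was 1 against 4.

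Most variable genes were low in replicate 2. Of the 169 loci, 136 were lowest in replicate 2, or 80.5% against 55% of all loci tested, and 31 were highest in it, or 18.3% against 21.9%. Only 11 were lowest in replicate 1, or 6.51% against 23.7%, and 22 in replicate 3, or 13.0% against 21.3%. The commonest order, in 101 loci, was highest in replicate 3 and lowest in replicate 2. Part of this order followed the scaling: by TMM, which moved the median of replicate 2 against the mean of the other two from -0.06 to 0.00 on the log2 scale, 67.9% of 156 variable loci were lowest in replicate 2, against 36.5% of all loci. By median-of-ratios size factors it was 68.6% against 36.7%. Without replicate 2 itself, 28 loci had a CV of at least 30%, of which 11 were among the 169.

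**Figure D4:**
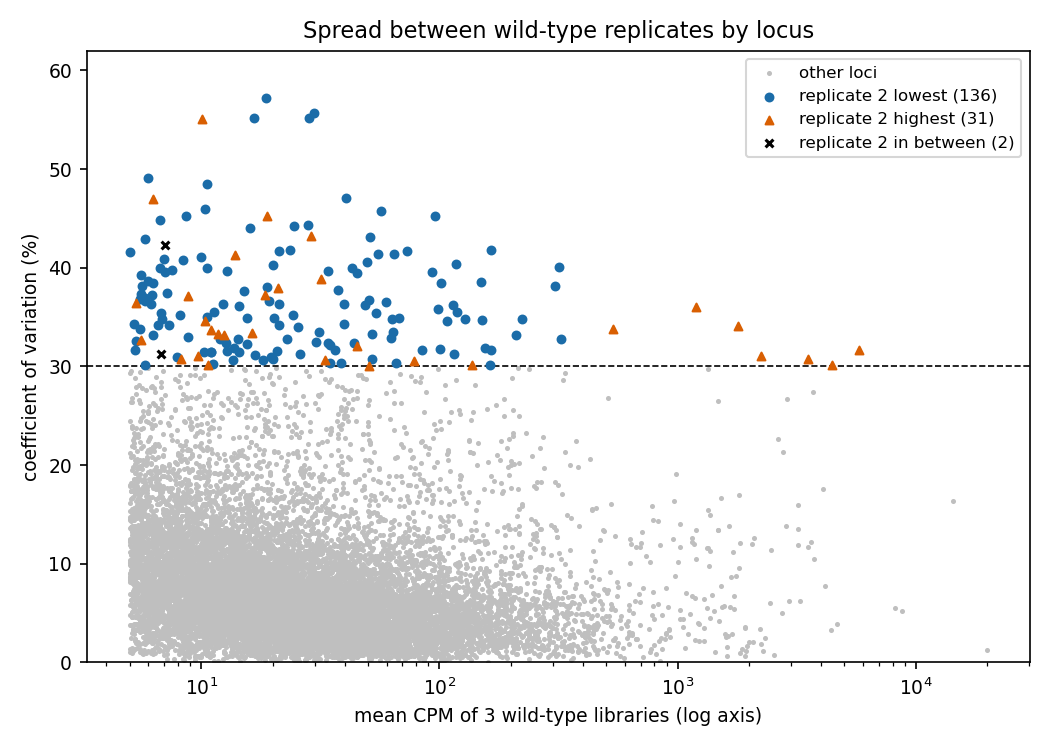
Coefficient of variation of the 3 wild-type libraries against mean CPM, on a log axis, for loci with a mean of at least 5 CPM. Coloured symbols are the 169 loci at or above the dashed line at 30%: 136 were lowest in replicate 2, and the loci above 1000 CPM were highest in it.

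The 20 loci with the highest CV ranged from 43.1% to 57.2%. AT5G52050, known as DTX50, a transporter of abscisic acid out of cells, led with 24.3, 6.39 and 25.5 CPM in replicates 1, 2 and 3. CYP707A3, an enzyme that breaks down abscisic acid, was read at 31.3, 11.5 and 42.5 CPM. LBD41, a transcription factor gene known to rise under low oxygen, was read at 31.5, 12.5 and 45.7 CPM. In each of these 3 genes replicate 2 lay far below both other libraries. AT3G10040, known as HRA1, a repressor that acts in low oxygen, followed the same order with 16.2, 7.69 and 26.1 CPM, as did HB1, a haemoglobin named here after its values were seen, with 5.97, 4.98 and 10.2 CPM. ERF105, the cold-responsive transcription factor gene at AT5G51190, was read at 40.3, 21.5 and 59.5 CPM, and MYB77, which acts in auxin responses, at 96.5, 52.2 and 139 CPM. HRS1, a myb-like factor, was read at 6.91, 2.71 and 8.38 CPM, and FTM1, a desaturase, at 11.8, 4.94 and 14.99 CPM. AT4G29780, annotated as a nuclease, was read at 69.1, 26.9 and 74.0 CPM, and AT4G10270, of the wound-responsive family, at 8.50, 4.76 and 12.6 CPM. All 4 were lowest in replicate 2, as were AT2G39650, AT1G25400 and AT3G50800. AT1G66090, annotated as a disease resistance protein of the TIR-NBS class, was read at 27.1, 16.1 and 40.8 CPM. TPS04, a terpene synthase, and NUDT4, a nudix hydrolase, were highest in replicate 1, at 9.07, 3.32 and 7.69 CPM and at 32.4, 12.2 and 29.0 CPM. AT5G51190, AT4G10270 and AT3G50800 overlap a neighbouring locus, so their levels are less certain. Of the 20 loci, 16 were lowest in replicate 2. The other four, LTP4, AT5G54585, AT3G12320 and AT4G38860, were highest there, and LTP4, a lipid transfer protein, stood apart from all of them with 3.68, 13.3 and 13.3 CPM, low in replicate 1 alone.

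Product names were also counted among the 136 variable loci that were lowest in replicate 2. WRKY transcription factors made up 6 of them, or 4.41% against 0.212% of all loci tested, and calmodulin-like or calcium-binding proteins 6, or 4.41% against 0.550%. Integrase-type or ethylene-responsive DNA-binding proteins made up 5, or 3.68% against 0.258%. TIR-NBS or disease resistance proteins numbered 4, or 2.94% against 0.669%, and myb proteins 5, or 3.68% against 0.404%. Kinases were no more frequent than elsewhere, with 5.15% against 5.96%. The words searched were chosen after the genes had been seen, and the counts are a description. Some of these loci, such as WRKY33 and WRKY40, also belong to the list described next, so the counts add no separate support.

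The list of genes that respond rapidly to touch, cold or wounding held the largest share of variable members. Its members, like those of the other lists, were chosen with earlier results of these data known, so the counts are a description. Of its 12 members with a mean of at least 5 CPM, 10 had a CV of at least 30%, against 1.12% of all loci. All 12 were lowest in replicate 2, against 55% of all loci, as were the 11 that reached 5 CPM after TMM scaling, against 36.5%. After TMM scaling 8 members had a CV of at least 30%, against 156 of all 15095 loci so scaled. SZF1, a zinc finger protein gene induced by salt and other stresses, was read at 349, 177 and 424 CPM. Its paralogue CZF1, also called SZF2, was read at 176, 98.6 and 191 CPM. WRKY40 and WRKY33, transcription factors of the defence response, were read at 77.7, 33.6 and 81.6 CPM and at 240, 138 and 290 CPM. In each of these 4 genes replicate 2 was below both other libraries by more than the gap between them. The zinc finger genes ZAT10 and ZAT12, which act in abiotic stress, were read at 152, 77.0 and 157 CPM and at 24.6, 12.9 and 26.1 CPM. Among the touch genes, TCH2 and TCH3, calmodulin-like proteins, had 78.0, 53.5 and 85.7 CPM and 383, 286 and 454 CPM, with CVs of 23.2% and 22.5%, while TCH4, a xyloglucan-modifying enzyme of the cell wall, was highest in replicate 3 at 184, 156 and 288 CPM. CBF2, a master regulator of the cold response, was read at 6.66, 2.67 and 5.70 CPM. Only 1 member had a CV of at least 30% when replicate 2 was left out. Of the 12, TCH2, TCH3, WRKY33, WRKY40 and WRKY53 overlap a neighbour on the other strand, and with overlapping loci left out 7 members had a CV of at least 30%.

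Upstream bases are shown for 3 genes of this list, whose members moved together, and for AT3G12320 (LNK3), a gene that was highest in replicate 2. The 4 were chosen after their values were seen. The windows cover the 250 bases before each annotated start in TAIR10.1, written 5′ to 3′ along the gene. Capitals mark, on either strand, the W-box core TTGACC or TTGACT, which WRKY factors are known to bind, the core CGCGTT of the rapid stress response element, which calmodulin-binding factors are known to bind, and the G-box CACGTG of light and clock genes. In TCH2 the CGCGTT matches of opposite strands overlap as AACGCGTT. SZF1 and CZF1 both hold TTGACT and TTGACC separated by a single base. The windows of ZAT10, ZAT12, WRKY40 and TCH3, of the same list, hold none of the motifs marked here. Of all 15 members of the list, 7 held a W-box core, 2 held CGCGTT and 2 held the G-box. These are 46.7%, 13.3% and 13.3%, against 27.9%, 2.68% and 7.43% over all loci with a mean of at least 5 CPM. The evening element and I-box cores, described below, were also searched but are not marked. They were held by 4 and 2 of the 15, or 26.7% and 13.3%, against 5.08% and 12.6%. ZAT12 was among those holding the evening element core.
SZF1 (chr3:20775970-20776219, plus strand): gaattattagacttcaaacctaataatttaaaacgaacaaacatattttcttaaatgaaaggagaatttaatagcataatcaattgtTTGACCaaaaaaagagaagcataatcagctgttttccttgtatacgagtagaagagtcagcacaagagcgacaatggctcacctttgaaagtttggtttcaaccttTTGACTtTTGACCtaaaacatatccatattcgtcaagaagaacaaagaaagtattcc
CZF1 (chr2:16771747-16771996, plus strand): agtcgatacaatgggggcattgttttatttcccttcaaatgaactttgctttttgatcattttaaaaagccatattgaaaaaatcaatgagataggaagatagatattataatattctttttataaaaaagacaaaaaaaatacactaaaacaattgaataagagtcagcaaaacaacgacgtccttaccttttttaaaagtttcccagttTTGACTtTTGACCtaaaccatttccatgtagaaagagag
TCH2 (chr5:14999620-14999869, minus strand): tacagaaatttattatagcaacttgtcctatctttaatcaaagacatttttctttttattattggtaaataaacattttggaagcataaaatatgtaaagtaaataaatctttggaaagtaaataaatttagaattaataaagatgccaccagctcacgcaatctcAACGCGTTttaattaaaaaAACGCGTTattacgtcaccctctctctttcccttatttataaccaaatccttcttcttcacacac
AT3G12320 (chr3:3923265-3923514, plus strand): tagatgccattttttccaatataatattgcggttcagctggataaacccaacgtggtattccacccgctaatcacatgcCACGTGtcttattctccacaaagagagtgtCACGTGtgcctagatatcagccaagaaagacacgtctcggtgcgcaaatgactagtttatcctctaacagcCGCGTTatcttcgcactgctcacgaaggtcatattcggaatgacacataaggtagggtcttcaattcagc
A W-box core was found in 42.6% of the windows of the 136 variable loci that were lowest in replicate 2, in 19.4% of the 31 that were highest in it and in 27.9% of all 15041 windows of loci with a mean of at least 5 CPM. The shares for CGCGTT were 6.62%, 6.45% and 2.68%, and for the G-box 8.82%, 9.68% and 7.43%. The evening element core AAATATCT, a sequence of clock-controlled genes, was found in 9.56%, 6.45% and 5.08%, and the I-box core GATAAG, known from light-regulated promoters, in 15.4%, 3.23% and 12.6%. A match describes these letters and was not tested as a binding site.

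Defence genes of the salicylate pathway moved in the same direction with a smaller spread. All 11 members of the list were lowest in replicate 2, by CPM, against 55% of all loci, and by TMM, against 36.5%. A CV of at least 30% was reached by 2 of the 11, against 1.12% of all loci. PR2, a glucanase made upon infection, was read at 414, 207 and 356 CPM and PR5 at 120, 65.5 and 111 CPM. WRKY70, a regulator of salicylate responses, was read at 186, 106 and 204 CPM. ICS1, which encodes the enzyme that makes most salicylate, was read at 57.9, 41.9 and 51.9 CPM. Of the 11, 8 were highest in replicate 1, against 31.7% of all loci. The phosphate starvation list, whose members take up and save phosphate, had no member with a CV of at least 30%, but all 12 with a mean of at least 5 CPM were highest in replicate 1, against 31.7% of all loci, and 11 were after TMM scaling, against 28%. SPX1, a phosphate sensor, was read at 83.6, 58.2 and 65.8 CPM, and PHT1;4, a phosphate transporter, at 52.1, 30.7 and 45.7 CPM. In the jasmonate list 1 of 8 members, the lipoxygenase gene LOX4, was variable, at 36.0, 19.7 and 46.6 CPM, whereas LOX2 was read at 961, 777 and 799 CPM.

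**Figure D5:**
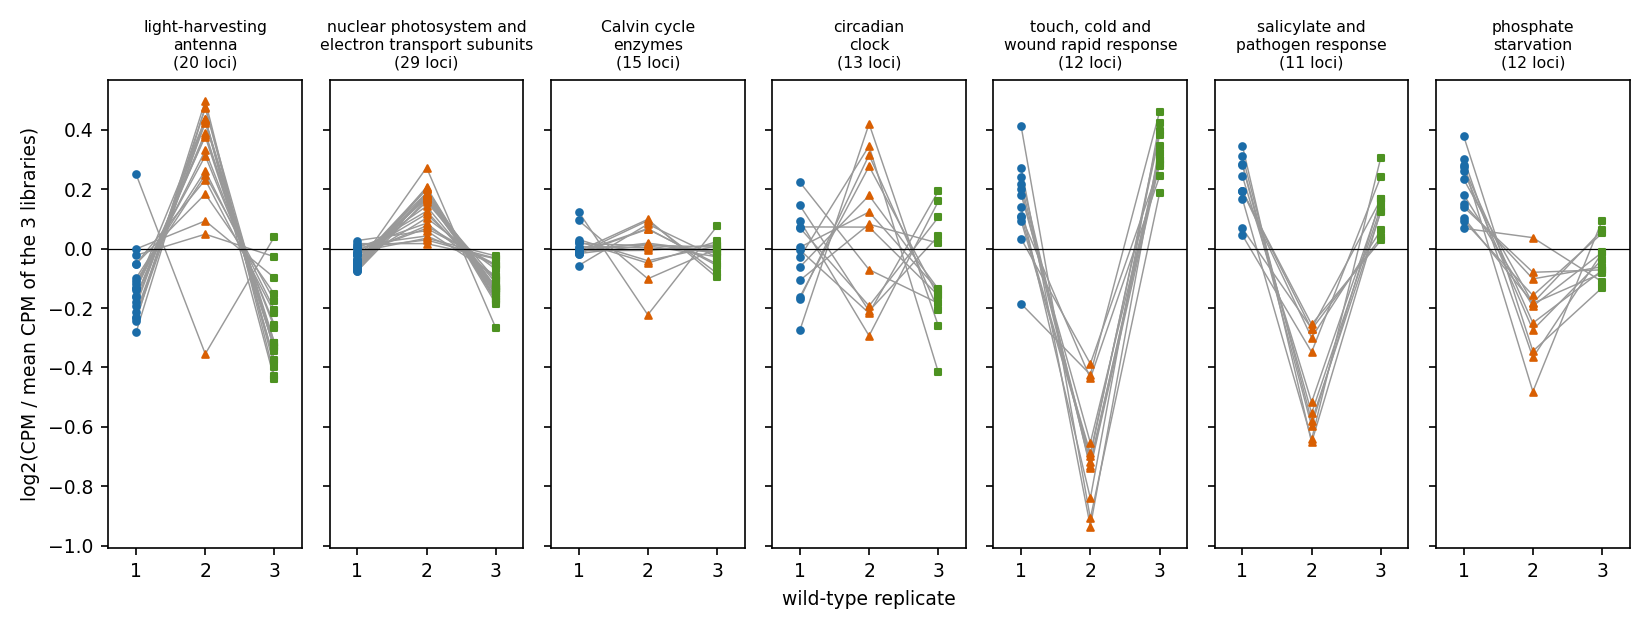
Log2 ratio of the CPM in each wild-type library to the mean of the 3, for the members of 7 gene lists with a mean of at least 5 CPM; a line joins the values of a gene. The rapid-response and salicylate genes all dip in replicate 2, while 19 of 20 antenna genes rise there.

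The light-harvesting genes moved the other way. Of the 20 antenna loci, 19 were highest in replicate 2, by CPM, against 21.9% of all loci, and also by TMM and size factors, against 38.5% and 38.3%. A CV of at least 30% was reached by 7 of the 20, against 1.12% of all loci. LHCB2.2, which encodes a major photosystem II antenna protein, was read at 1006, 1680 and 885 CPM, LHCB2.1 at 1521, 2482 and 1355 CPM and LHCB3 at 1966, 3038 and 1731 CPM. Replicate 2 stood above both other libraries by more than the gap between them. The exception was LHCB4.3, at 214, 140 and 185 CPM, which was lowest in replicate 2, unlike LHCB4.1 and LHCB4.2. No photosystem or electron transport gene reached a CV of 30%, although all 29 kept the order of highest in replicate 2. The largest CV among them was 19.1% in PSAD2, read at 950, 1195 and 822 CPM. The chlorophyll synthesis genes GUN5, a subunit of magnesium chelatase, and CAO, which makes chlorophyll b, had 1648, 2161 and 1616 CPM and 151, 200 and 149 CPM. In contrast GSA1, at 172.5, 166 and 171 CPM, and PORB, at 612, 625 and 647 CPM, varied little.

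Clock genes were read in both directions. CCA1 and LHY, the transcription factors whose transcripts are known to peak in the morning, were read at 56.3, 91.1 and 56.9 CPM and at 95.4, 134 and 93.1 CPM. PRR9 and PRR7, repressors known to follow them in the day, were read at 2.25, 5.59 and 2.29 CPM and at 50.2, 68.0 and 50.3 CPM. All 4 were highest in replicate 2. TOC1, LUX and ELF4, known to peak in the evening, were lowest there, at 99.5, 76.0 and 104 CPM, 42.1, 32.9 and 39.2 CPM, and 32.5, 28.1 and 37.3 CPM. Of the 13 clock loci with a mean of at least 5 CPM, 7 were highest in replicate 2, against 21.9% of all loci, and 4 were lowest in it, against 55%. By TMM, 8 were highest, against 38.5%, and 4 lowest, against 36.5%. None of the 13 reached a CV of 30%, CCA1 being the nearest at 29.3%. PRR9, with a mean below 5 CPM, was not among the 13, so its spread was not classed. Among the variable loci that were highest in replicate 2, and named after their values were seen, were CDF3, a cycling DOF factor, at 28.4, 45.7 and 21.7 CPM, and the 3 night light-inducible and clock-regulated genes LNK2 (AT3G54500), LNK3 (AT3G12320) and LNK4 (AT5G06980). LNK3, which overlaps a neighbouring locus, was read at 13.8, 28.7 and 14.0 CPM, LNK4 at 15.3, 26.3 and 13.8 CPM and LNK2 at 120, 184 and 107 CPM. Of 2 auxin-responsive SAUR-like loci in this group, AT4G38860 was read at 20.02, 43.2 and 23.4 CPM, and the cell wall gene EXPA8, an expansin, at 65.1, 106 and 63.9 CPM. The time of harvest is not in the labels, and its part in these values was not tested.

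At the other end, several genes were read at almost the same level in all 3 libraries. Among loci with a mean of at least 50 CPM the lowest CV was 0.0727%, for the protein kinase locus AT5G05200, at 160.6, 160.6 and 160.4 CPM. RBP31, a chloroplast RNA-binding protein gene, was read at 846, 848 and 846 CPM, and NIR1, the nitrite reductase of nitrate assimilation, at 356, 356 and 355 CPM. SR34, a splicing factor, was read at 86.3, 86.7 and 86.2 CPM. The others were ADSS, an enzyme of purine synthesis, ACR3, EMB3003, UGT78D1, a glucosyltransferase acting on flavonols, AT2G24280 and the cell growth defect factor-like locus AT5G23040. EMB3003 and AT5G05200 overlap a neighbouring locus. The 10 steadiest loci had CVs of at most 0.307%, below the counting error of 0.666% to 2.59% behind them, so their order lies within the counting error. Of the genes used as references for quantitative PCR, the actin gene ACT8 had a CV of 0.527%, UBC9 of 1.23% and ACT7 of 1.80%, and the polyubiquitin gene UBQ10 had the largest, 8.64%, at 1708, 1814 and 1526 CPM. The order of UBQ10, highest in replicate 2 and lowest in replicate 3, was that of the antenna.

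The genes that varied among wild-type replicates also varied within the other genotypes. Of the 169 loci, 87 had a CV of at least 30% among the 3 aar2-1 libraries, or 51.5% against 3.86% of all loci tested, and 90 among the 3 aar2-2 libraries, or 53.3% against 2.73%. Their median CV was 30.8% and 31.6%, against 8.23% and 6.47% over all loci. Of the 31 loci that were highest in wild-type replicate 2, 11 and 7 reached 30%, or 35.5% and 22.6%. For the loci that were lowest in wild-type replicate 2, the order by replicate number was the same in aar2-1 and not in aar2-2. The median level of the 136 loci that were lowest in wild-type replicate 2, relative to each gene's mean, was 0.966, 0.736 and 1.295 in replicates 1, 2 and 3 of aar2-1, and 0.659, 1.06 and 1.29 in those of aar2-2. The summed CPM of the rapid-response list was 1764, 1085 and 2104 in wild type, 3124, 2207 and 4850 in aar2-1 and 1536, 2743 and 3809 in aar2-2. In aar2-1 replicate 2 was again the lowest, and in aar2-2 replicate 1. The antenna, at 54689, 75919 and 49690.5 CPM in wild type, summed to 50168, 44765 and 48407 in aar2-1, lowest in replicate 2. In aar2-2 it summed to 46577, 41941 and 34892, highest in replicate 1 and lowest in replicate 3, the reverse of the rapid-response order there. The salicylate list, at 1286, 732 and 1189 CPM in wild type, summed to 602, 649 and 541 in aar2-1, highest in replicate 2. It was also highest in replicate 2 of aar2-2, at 633, 726 and 635. From wild type to aar2-1 the jasmonate list also went from lowest to highest in replicate 2, while the clock list was highest there in both. In aar2-2 the jasmonate list was highest in replicate 3 and the clock list in replicate 1.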

How the data were processed

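mRNA sequencing of 3 wild-type libraries was described with no test, because 1 genotype offers no contrast. The authors deposited 1 table per library with CPM values for the same 22903 loci, as read from the values; the unit is not named in the file headers. Low values were whole multiples of 1 step, which gave the reads behind them (at least 99.9% whole per library, within 0.01). TRI Reagent served for extraction and a NEBNext Ultra II RNA kit for the libraries, per the labels' protocols. The submitters' processing notes name featureCounts 1.64, DESeq2 and TAIR10 without their roles. The aligner, strand setting and filters are not given in the sources used here.

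Loci were matched by code to TAIR10.1 (RefSeq): 22767 matched, and 136 organelle loci did not and are given by code. Mean, SD and CV were computed with pandas 2.3.3, TMM factors with edgeR 4.0.16 in R 4.3.3. CPM divides by a library's total, so a rise in abundant transcripts lowers all others. The CV calculation was tested on simulated data. Of 316 members written into 30 lists, 304 were used: 8 were dropped because the code did not carry the symbol and 4 because they were not listed. The rule for named genes took the 30 highest loci by CPM, 15 nuclear loci by CPM per kilobase, the 20 highest and 10 lowest by CV, and list members by level or CV; a selection of those list members is printed. Members and lists were chosen with earlier results of these data known. Alternatives covered scaling, thresholds, length, overlap and each replicate.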

Additional observations from a re-analysis of the deposited data

How the results depend on the processing

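Detection, at 18826 loci, kept within 1.5 times under every alternative tried. Per kilobase the share of the 100 most abundant loci rose from 24.7% to 29.7%, with 78 loci shared, and that of the 4 photosynthesis lists from 17.3% to 21.3%. Leaving out a replicate gave 23.61% to 25.5% and 16.2% to 18.1%. The count of 169 variable loci depended on its definition: it was 573 from a mean of 1 CPM, 3396 with no filter, 274 and 341 by the SD of log2 values with pseudocounts of 1 and 0.1, 678 at a CV of 20% and 5 at 50%. It ran from 28 without replicate 2 through 296 without replicate 3 to 438 without replicate 1. The share lowest in replicate 2 was 65.8% from a mean of 1 CPM, 44.6% with no filter, 67.9% by TMM and 68.6% by median-of-ratios size factors, and 139 of the 156 loci called under either scaling were among the 169. The 10 variable rapid-response genes became 8 by TMM and 8 by median-of-ratios size factors. They became 0 at a CV of 50%, and 1 to 11 with a replicate left out, 1 being without replicate 2. The causes of these changes were not tested, beyond the fewer loci or libraries each alternative holds. Over these results, 41 recomputed values moved by less than the limit set for a change and 17 by more. For single gene groups and genes the counts were 139 and 22. No paired analysis was possible because no groups were compared. With 3 libraries a CV is imprecise, and at 5 to 10 CPM counting error alone has a median CV of 7.19%. Values of overlapping or near-identical loci cannot be separated with certainty.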

Other observations

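Chloroplast-encoded loci were often highest in replicate 2, though the difference from the nuclear antenna genes was not tested. Of the 54 with a mean of at least 5 CPM, 21 were highest in replicate 2, against 21.9% of all loci, and 25 in replicate 3, against 46.3%. By TMM, 35 were highest in replicate 2, against 38.5% of all loci. ATCG01130 was read at 658, 653 and 803 CPM and ATCG00470 at 750, 772 and 600.3 CPM, in opposite orders between replicates 1 and 3.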
